A study of Mus musculus with 2 samples.

Results

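The cells described here were taken from thymocytes, developing T cells of the mouse thymus, and their RNA placed them at the entry to S phase. Among them was 1 wild type cell, given below, with B cell RNA and no UMI of Cd3d, Cd3e or Cd3g. The cells were chosen by 17 genes and by Ptcra, Rag1 and Rag2. A cell belonged to the set when it held at least 6 UMIs (unique molecular identifiers, each standing for 1 captured RNA molecule) of Mcm3, Mcm5, Mcm6, Hells, Ung, Ccne2 and Clspn together, which is called the S sum here. It also held under 10 UMIs of Hist1h2ap, Hist1h2af, Hist1h2ak and Esco2 together (the H sum) and under 8 UMIs of Ube2c, Cdc20, Ccnb1, Cenpf, Plk1 and Cenpa together (the M sum). Cells with a Ptcra UMI and no Rag1 or Rag2 UMI were left out. The rule took 84 of 3072 kept cells, 44 of 1731 in the mutant library and 40 of 1341 in the wild type library. The mutant thymocytes were homozygous for altered GATA sites 1 and 2 of NMe, a distant enhancer of Myc that is bound by NOTCH1 in T cell precursors, and the other library came from wild type thymocytes. Each genotype had 1 library of 5000 loaded cells, and the labels give no strain, age or number of mice. No test between genotypes is therefore possible, and every 95% interval below covers counting error only.

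At the end of G1, cyclin E with CDK2 completes the release of E2F transcription factors from the retinoblastoma family, and E2F then switches on the genes of DNA replication. The MCM helicase has been loaded on origins before this step by ORC, CDC6 and CDT1, and CDC45 and GINS join it when origins fire. RNA of the replication histones accumulates once DNA synthesis runs, and the mitotic genes follow later in the cycle. In the thymus, cells divide after the pre-T cell receptor checkpoint, with further rounds before they become quiescent CD4 CD8 double-positive cells that recut their receptor genes with RAG1 and RAG2. In human and mouse T cell precursors, Myc is a known target of NOTCH1.

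The promoters of the rule's S genes are shown first, since the E2F motif in them is a sequence feature that the rule did not use. The motif was searched as TTTCCCGC, TTTGGCGC, TTTCGCGC or TTTGCCGC on both strands of RefSeq promoters of GRCm38.p6, from 250 bases before the gene start to 50 after it. The letters are in capitals where they matched, and overlapping matches run together. Mcm5 lies at chr8:75109259-75109558 on the plus strand, Mcm6 at chr1:128359656-128359955 on the minus strand, Mcm3 at chr1:20820263-20820562 on the minus strand, Hells at chr19:38930740-38931039 on the plus strand and Ung at chr5:114130185-114130484 on the plus strand.
Mcm5: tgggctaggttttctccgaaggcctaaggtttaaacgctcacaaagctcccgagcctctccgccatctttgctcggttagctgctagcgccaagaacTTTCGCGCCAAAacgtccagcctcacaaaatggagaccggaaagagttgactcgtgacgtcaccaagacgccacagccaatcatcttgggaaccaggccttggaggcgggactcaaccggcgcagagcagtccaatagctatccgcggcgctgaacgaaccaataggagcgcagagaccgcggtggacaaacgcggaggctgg
Mcm6: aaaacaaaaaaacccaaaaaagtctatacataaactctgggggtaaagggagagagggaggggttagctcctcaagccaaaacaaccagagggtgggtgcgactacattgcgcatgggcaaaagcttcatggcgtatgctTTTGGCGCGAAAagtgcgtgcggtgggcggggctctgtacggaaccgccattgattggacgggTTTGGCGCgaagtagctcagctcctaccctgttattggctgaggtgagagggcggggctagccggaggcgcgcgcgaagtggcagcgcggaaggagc
Mcm3: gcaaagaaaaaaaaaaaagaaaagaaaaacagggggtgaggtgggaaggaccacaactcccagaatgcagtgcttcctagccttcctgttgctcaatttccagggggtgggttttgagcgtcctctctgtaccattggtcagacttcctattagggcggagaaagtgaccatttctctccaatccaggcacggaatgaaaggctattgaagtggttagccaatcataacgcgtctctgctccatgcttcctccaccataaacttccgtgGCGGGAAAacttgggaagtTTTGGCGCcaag
Hells: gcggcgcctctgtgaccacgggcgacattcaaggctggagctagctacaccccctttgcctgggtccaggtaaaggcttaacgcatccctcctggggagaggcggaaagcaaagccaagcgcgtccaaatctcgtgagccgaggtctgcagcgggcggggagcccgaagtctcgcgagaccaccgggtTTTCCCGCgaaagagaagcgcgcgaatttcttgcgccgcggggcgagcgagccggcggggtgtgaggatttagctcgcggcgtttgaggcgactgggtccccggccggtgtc
Ung: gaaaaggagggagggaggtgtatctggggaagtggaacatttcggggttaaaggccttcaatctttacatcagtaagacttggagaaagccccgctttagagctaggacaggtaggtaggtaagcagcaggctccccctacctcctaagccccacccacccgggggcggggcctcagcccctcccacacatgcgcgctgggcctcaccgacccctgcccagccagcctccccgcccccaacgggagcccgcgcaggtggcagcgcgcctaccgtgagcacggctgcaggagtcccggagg
Mcm6 had 3 matches, Mcm5 and Mcm3 had 2 each, Hells had 1, and Ung had 0. Of the 6 S genes with a promoter in the table, 5 held the motif. Ccne2 was not among them. The share was 37.5% of 16 promoters of origin licensing and firing genes, 33.3% of 27 promoters of replication fork genes and 32% of 25 promoters of E2F and G1/S control genes. It was 0 of 19 for nucleotide supply genes, 11.4% of 44 for mitosis genes, 5.91% of the 4640 tested genes with a promoter and 2.60% of all 27025 genes in the table. The CHR motif, searched as TTTGAA or TTCGAA on both strands, was found in 75% of the 44 mitosis promoters and in 0 of the 6 S gene promoters. It was in 37.5% of the licensing and firing promoters, 28% of the E2F and G1/S control promoters, 18.5% of the fork promoters, 15.8% of the nucleotide supply promoters, 16.5% of those of tested genes and 21.7% of all. The NF-Y motif CCAAT was in 66.7% of the S gene promoters, 70.5% of the mitosis promoters and 41.1% of all. These are matches of letters in a fixed window and say nothing of binding.

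**Figure D1:**
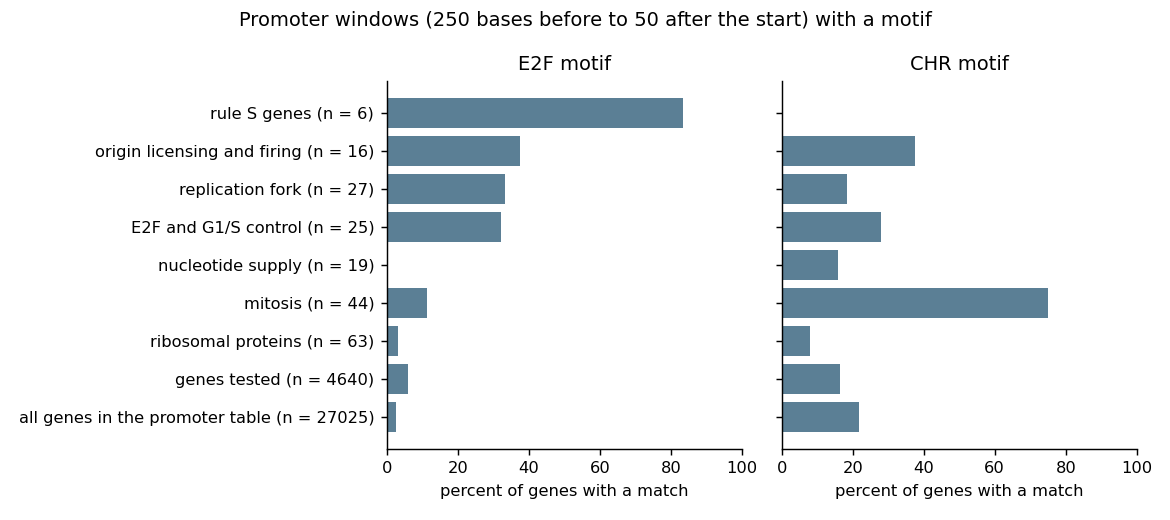
Share of promoter windows with the E2F motif (left) and the CHR motif (right), in percent of the genes of each list that have a window; n is the number of those genes. The E2F bar is longest for the S genes of the rule at 83.3%, and the CHR bar is longest for the mitosis genes at 75%.

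The mutant cells at S phase entry made up 2.54% of kept mutant cells (1.85 to 3.40), and the wild type ones 2.98% of kept wild type cells (2.14 to 4.04). The mutant share was 0.44 percentage points lower, with an interval of -1.68 to 0.72, so a difference was not detectable at this number of cells. Cycling cells as a whole were fewer in the mutant library, with 309 of 1731 cells that passed any of the S, H or M thresholds, against 556 of 1341 in wild type. Of these, S phase entry cells were 14.2% (10.5 to 18.6) in mutant and 7.19% (5.19 to 9.67) in wild type. Histone-rich cells, with an H sum of at least 10 and an M sum under 8, numbered 90 in mutant and 159 in wild type, and mitotic cells, with an M sum of at least 8, numbered 159 in mutant and 353 in wild type. The rule reads raw UMIs and so moves with depth. The median was 2596 UMIs per kept cell in mutant and 3329 in wild type, and among S phase entry cells it was 6453.5 in mutant and 5827 in wild type, with ranges of 1807 to 14851 and 1946 to 13264.

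The chosen cells lay close to the thresholds in part. The S sum had a median of 10 in mutant cells (range 6 to 29) and of 9 in wild type cells (6 to 21). At the lowest allowed sum of 6 there were 4 mutant and 4 wild type cells, and 1 UMI below it, at 5, there were 8 mutant and 10 wild type cells. At the highest allowed H sum of 9 there were 2 mutant cells and 1 wild type cell, and at 10 there were 2 mutant and 4 wild type cells. At an M sum of 7 and of 8 there was 1 cell in each library. The exclusion for Ptcra without Rag removed 16 mutant and 4 wild type cells. The libraries shared 1 barcode, which was not a member.

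RNA outside the rule was read as counts per 1000000 UMIs of the set (CPM), where 1 UMI is worth 3.40 CPM in mutant and 4.14 CPM in wild type S phase entry cells. A gene was tested in the sense of a size rule when it reached 20 CPM in at least 1 of these sets, which 5980 genes did, and it is said to be past the threshold when its log2 ratio with 5 CPM added was at least 1 in size. Against the rest of their own library, 36 genes were past the threshold upwards in both libraries, or 0.602% of those tested, and 51 downwards, or 0.853%. The rule's own genes are among them, and all genes of these cells share the choice, so this is a description. Ung, which removes uracil from DNA, led the list with 262 CPM in mutant S phase entry cells and 27.5 CPM in the other mutant cells, and with 207 CPM in wild type S phase entry cells and 35.9 CPM in the other wild type cells. Outside the rule, E2f1, the activator E2F, had 167 CPM against 22.0 CPM in mutant and 137 CPM against 38.1 CPM in wild type. Dtl, the receptor of the ubiquitin ligase that removes CDT1, had 173 CPM against 41.4 CPM in mutant and 228 CPM against 64.6 CPM in wild type. These genes were thus several-fold higher in the S phase entry cells of each library.

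The other genes outside the rule among the 20 that ranked highest by the lower of their 2 log2 ratios were mostly of the replication machinery. They included the MCM subunits Mcm2 and Mcm4, the single-strand binding subunit Rpa2, Gins2 of the helicase, the polymerase epsilon subunit Pole2, the histone chaperone subunit Chaf1b, the origin loader Cdc6 and the nuclease Exo1, together with Zfp367, Zmynd19 and Bri3bp. Cdc6 had 85.0 CPM in mutant S phase entry cells against 14.1 CPM in the rest, and 74.5 CPM in wild type ones against 28.8 CPM in the rest. Mcm2 had 184 CPM against 60.1 CPM in mutant and 182 CPM against 60.3 CPM in wild type. Of 19 tested origin licensing and firing genes, 9 in mutant and 6 in wild type were past the threshold upwards, with medians of 0.95 and 0.61 on the log2 scale. Of 34 replication fork genes, 21 in mutant and 7 in wild type were, with medians of 1.15 and 0.69. Over all tested genes 3.71% in mutant and 2.54% in wild type were past it upwards, and the medians were 0.02 and -0.01. These ratios have unlike denominators in the 2 libraries. The fork list summed to 4997 CPM in mutant and 5314 CPM in wild type S phase entry cells. In the rest it summed to 2333 CPM in mutant and 3679 CPM in wild type. Non-cycling cells were 1422 of the 1687 other cells in mutant and 785 of 1301 in wild type.

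Mitotic genes were low in S phase entry cells, by a rule that also held the M and H sums low. Of the rest, 1422 mutant cells and 785 wild type cells were non-cycling. The 37 tested genes of the mitosis list had a median log2 ratio over the rest of -0.96 in mutant and -1.39 in wild type, with 18 in mutant and 22 in wild type past the threshold downwards, which 4.75% and 6.2% of all tested genes were. Top2a, which untangles DNA, had 180 CPM in mutant S phase entry cells, 831 CPM in histone-rich and 964 CPM in mitotic mutant cells, and 14.2 CPM in non-cycling ones. In wild type it had 252 CPM, 664 CPM, 919 CPM and 28.3 CPM in the same sets. Mki67, a marker of cycling cells, had 54.4 CPM in mutant S phase entry cells and 7.0 CPM in non-cycling ones, and 120 CPM in wild type ones and 15 CPM in non-cycling ones. It was lower than in the mitotic cells, at 316 CPM in mutant and 325 CPM in wild type. The label of cycling cells at S phase entry thus rests on replication genes that were high, with Top2a and Mki67 below their levels in the later sets but above those in non-cycling cells.

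**Figure D2:**
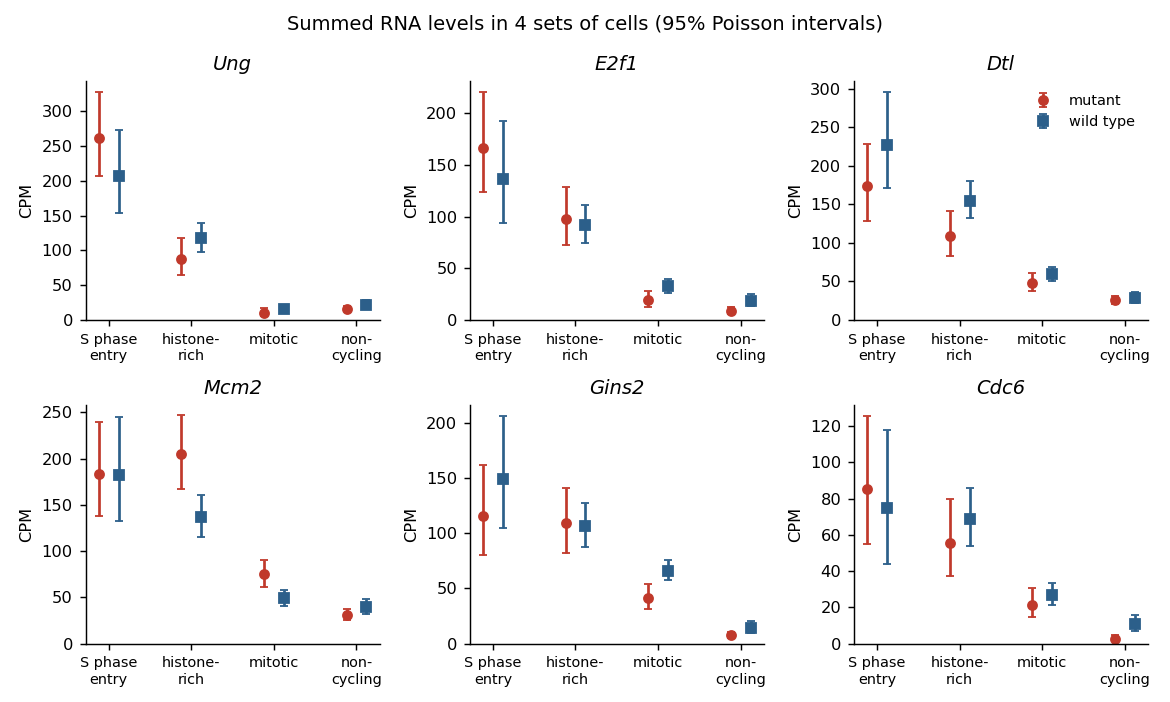
Levels in CPM (y axis, with 95% Poisson intervals) of 6 genes in S phase entry, histone-rich, mitotic and non-cycling cells of each library, mutant at left (red circles) and wild type at right (blue squares) of each pair. Ung and E2f1 are highest at S phase entry in both libraries, while Mcm2 of mutant is 184 CPM at S phase entry and 204 CPM in histone-rich cells.

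Ung and Mcm6 are genes of the S sum that chose the cells, so their levels across the sets are a description, while E2f1 is not in the rule. Ung was 87.9 CPM in mutant histone-rich cells and 118 CPM in wild type histone-rich cells, and E2f1 was 97.5 CPM in mutant and 91.6 CPM in wild type ones. Both were then lower in mitotic cells, where Ung had 10.7 CPM in mutant and 16.0 CPM in wild type. Mcm6 had 473 CPM at S phase entry and 503 CPM in histone-rich mutant cells, and 364 CPM and 305 CPM in the same wild type sets. Rrm2, the ribonucleotide reductase subunit, and Slbp, which binds histone mRNA, were higher in histone-rich cells. Rrm2 had 374 CPM at S phase entry and 1126 CPM in histone-rich mutant cells, and 497 CPM and 916 CPM in wild type.

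The cells also varied along the H sum, which was low by rule but not equal. An H sum of 0 or 1 was found in 24 of 44 mutant cells (54.5%, 38.8 to 69.6) and in 8 of 40 wild type cells (20%, 9.05 to 35.6). With the H sum scaled to 5000 UMIs per cell, a sum under 2 was found in 24 mutant and 13 wild type cells. Unscaled sums of 2 to 4 were found in 10 mutant and 17 wild type cells, and sums of 5 to 9 in 10 mutant and 15 wild type cells. Over these 3 bins Pcna, the polymerase clamp, had 477, 841 and 996 CPM in mutant and 197, 770 and 622 CPM in wild type. The PCNA-associated factor 2810417H13Rik had 350, 959 and 1177 CPM in mutant and 555, 935 and 1044 CPM in wild type. Rrm2 had 169, 548 and 698 CPM in mutant and 215, 605 and 559 CPM in wild type. These genes were lowest in the cells with the least histone RNA in both libraries. Ung and E2f1 showed no such order, with 253, 294 and 259 CPM of Ung in mutant and 269, 198 and 179 CPM in wild type, all within each other's intervals.

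**Figure D3:**
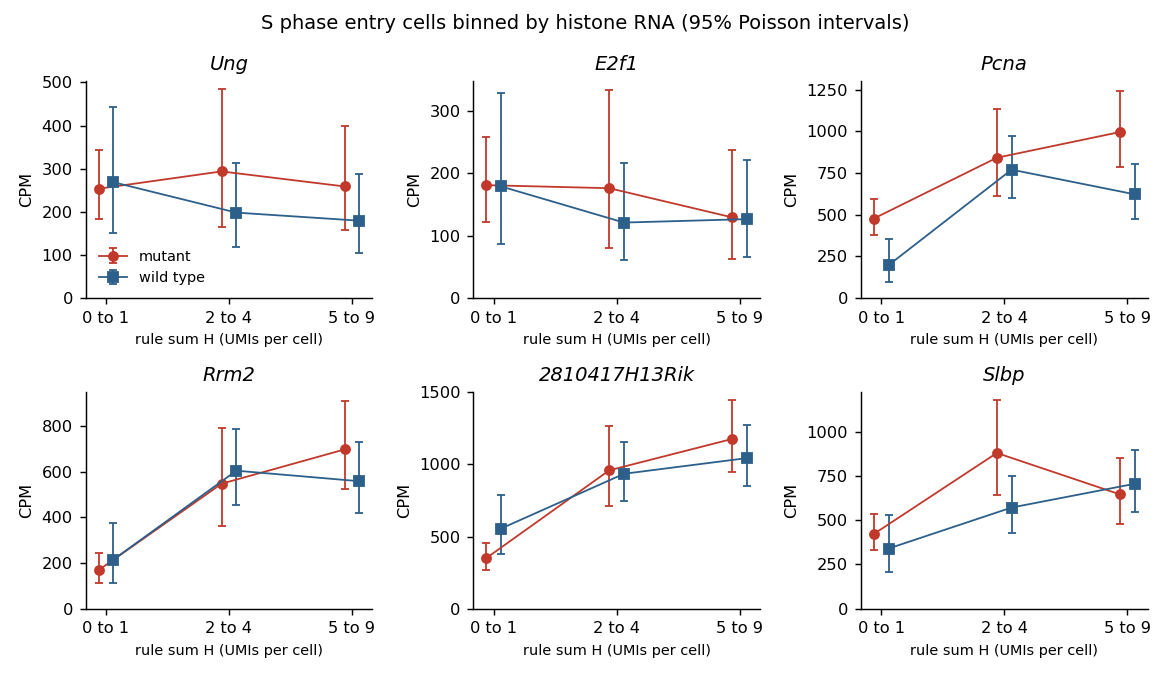
Levels in CPM (y axis, with 95% Poisson intervals) of 6 genes in S phase entry cells binned by the H sum in UMIs per cell (x axis), mutant in red circles and wild type in blue squares. Pcna, Rrm2 and 2810417H13Rik are lowest in the first bin of both libraries, while Ung and E2f1 keep overlapping intervals.

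The other histone genes were read as a sum that leaves out the rule's genes, in which H2afz, a variant not tied to replication, gave 911 of 1099 UMIs in mutant and 907 of 1040 in wild type. For this sum the log2 ratio of cells with an H sum of 5 to 9 over cells with 0 or 1 was 1.01 in mutant (0.81 to 1.21) and 0.20 in wild type (-0.04 to 0.45). For the licensing and firing list it was 0.39 in mutant (0.08 to 0.70) and 0.71 in wild type (0.31 to 1.13). With the H sum scaled to 5000 UMIs per cell the other histone genes gave 1.12 in mutant (0.87 to 1.37) and -0.01 in wild type (-0.33 to 0.30), and the licensing and firing list 0.82 in mutant (0.44 to 1.19) and 0.96 in wild type (0.53 to 1.39). The bins hold different kinds of cells, given next, and the part of cell kind in these ratios was not tested.

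The stage genes showed where the cells of each library stood in development. A UMI of Rag1 or Rag2, the recombinase genes, was found in 16 of 44 mutant cells (36.4%, 22.4 to 52.2) and in 35 of 40 wild type cells (87.5%, 73.2 to 95.8). The rule used these genes through its Ptcra clause. With the clause lifted, 16 of 60 mutant cells (26.7%) and 35 of 44 wild type cells (79.5%) had one. With each cell thinned to 2000 UMIs, which left out 2 mutant cells and 1 wild type cell, the shares were 9.52% in mutant (2.66 to 22.6) and 61.5% in wild type (44.6 to 76.6). Mature non-cycling cells, with at least 3 UMIs of Ccr7, Klf2 and S1pr1 and thus expected to lack Rag, gave 2.78% in mutant and 6.42% in wild type at the same thinned depth, with unthinned medians of 3557 and 3389 UMIs.

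Among cells without a Rag UMI, 2 kinds stood out, whose definition was chosen after their values were seen. At least 3 UMIs of Il2ra and Hes1, the interleukin 2 receptor chain CD25 of immature thymocytes and a NOTCH target, were found in 7 mutant and 0 wild type cells. For the 0 of 40, a floor of 3 cells is a share of 7.5%, and the exact upper limit is 8.81%. At least 3 UMIs of Ccr7, Klf2 and S1pr1, genes of mature thymocytes ready to leave the thymus, were found in another 7 mutant and 0 wild type cells. Of the 7 mature mutant cells, 6 had an H sum of 0, 6 had a Cd8a or Cd8b1 UMI and 5 had a UMI of Nkg7 or Xcl1, which cytotoxic and innate-like cells express. Of the 7 mutant cells with Il2ra and Hes1, 5 had a UMI of Nkg7 or Xcl1 as well, and 3 had a Cd8a or Cd8b1 UMI. Their median of Cd3d, Cd3e and Cd3g UMIs was 19, against 20 in the mature mutant cells and 11 in wild type cells with Rag. The stage of the cells with Il2ra and Hes1 was not tested. In each library 1 cell held over 20 UMIs of the B cell list, and 13 mutant and 4 wild type cells fell under none of these. The wild type cell held 492 UMIs of the B cell list and 0 of Cd3d, Cd3e and Cd3g. The mutant cell held 57 and 26. Counted over all cells, with or without Rag, the Il2ra and Hes1 limit was reached by 10 mutant and 0 wild type cells, and the mature limit by 9 mutant and 2 wild type cells.

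Free RNA gives UMIs in cells that do not express a gene, so the shares of cells with at least 1 UMI were set beside resting cells with at least 3 Rag UMIs, again at 2000 UMIs per cell. Their unthinned medians were 1916.5 UMIs in mutant and 2347.5 in wild type. Ccr7, Klf2 or S1pr1 was found in 31.0% of mutant cells (17.6 to 47.1), against 14.9% of those resting cells (7.66 to 25), and in 5.13% of wild type cells, against 5.41%. Nkg7 or Xcl1 was found in 26.2% of mutant cells (13.9 to 42.0), against 2.70% of the resting cells (0.329 to 9.42). In wild type these genes were found in 0 of 39 cells, against 0.901% of the resting cells. For the 0 of 39, a floor of 3 cells is 7.69%, and the exact upper limit is 9.03%. Il2ra or Hes1 was found in 21.4% of mutant cells (10.3 to 36.8), against 21.6% of the resting mutant cells (12.9 to 32.7), and in 0 of 39 wild type cells, against 2.70%. The intervals for the mature genes overlapped in mutant, and those for Nkg7 or Xcl1 did not. For Il2ra or Hes1 the other mutant sets gave 5.56% in mature non-cycling, 17.5% in histone-rich and 8.97% in mitotic cells. Thinning left 74 of the 164 resting mutant cells, and unthinned the share was 31.8% at S phase entry and 13.4% in the resting cells.

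**Figure D4:**
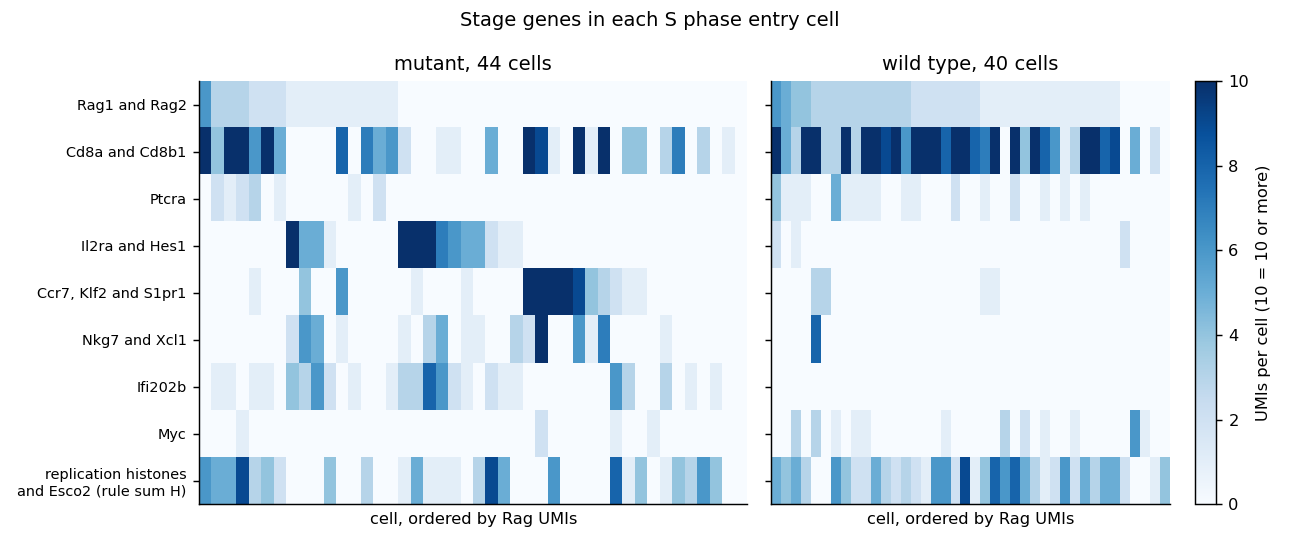
UMIs per cell (colour, 10 standing for 10 or more) of stage genes in each S phase entry cell, 1 column per cell, 44 mutant cells at left and 40 wild type cells at right. Columns are ordered by UMIs of Rag, then of Il2ra and Hes1, then of Ccr7, Klf2 and S1pr1, so blocks of these genes follow from the order. Most wild type columns carry Rag and Cd8 UMIs, while 28 of 44 mutant columns carry no Rag UMI. Of these 28, 7 hold at least 3 UMIs of Il2ra and Hes1, and another 7 at least 3 of Ccr7, Klf2 and S1pr1. A mutant cell with 1 Rag UMI held 5 UMIs of the first pair and 4 of the other genes.

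Between the libraries, 664 genes were past the threshold upwards in mutant S phase entry cells, or 11.1% of those tested, and 365 downwards, or 6.1%. Counted by sign alone, 56.7% were higher and 43.3% lower. The median of all tested genes was 0.12 on the log2 scale, so ratios of lists are to be read against it. With ribosomal protein and mitochondrial genes left out of the totals it was 0.01 and the share of calls that were upwards was 53% in place of 64.5%, and with median-of-ratios scaling these were 0.00 and 54.9%. Values of single genes below are log2 ratios with nothing added. A summed level moves with the mix of cells as well as with RNA per cell. The ratio among the 16 mutant and 35 wild type cells with a Rag UMI is therefore given beside many values. This subset need not match stage between the libraries. In it, 11 mutant and 34 wild type cells had a Cd8a or Cd8b1 UMI. A UMI of Nkg7 or Xcl1 was found in 4 mutant cells and 1 wild type cell. At the thinned depth, the interval of the mutant Rag share (9.52%, 2.66 to 22.6) overlapped that of mature non-cycling mutant cells (2.78%, 1.12 to 5.64).

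Of 19 tested origin licensing and firing genes, 11 were higher and 8 lower in mutant, with 0 past the threshold upwards and 1 downwards and a median of 0.03, with 5 CPM added. The 1 was Gins3 of the helicase complex, with 1 UMI in mutant cells and 12 in wild type cells (log2 -3.87, -9.29 to -1.11). The replication fork list had 16 higher and 18 lower of 34, and a median of -0.01, and the nucleotide supply list 9 higher and 10 lower of 19, 2 of them past the threshold upwards, and a median of -0.02. Under the other scalings these medians lay between -0.04 and -0.12. Among cells with Rag the licensing and firing list had 6 higher and 12 lower of 18, with 3 past the threshold downwards and a median of -0.29. The fork list had 11 higher and 23 lower of 34, with 3 past the threshold downwards and a median of -0.24, and the nucleotide supply list 8 higher and 9 lower of 17. For all genes tested among cells with Rag the median was 0.15, and 12.2% were past the threshold downwards. Of the S genes, summed 1706 CPM in mutant and 1618 CPM in wild type by a rule that set the sum, Ung, Mcm3, Mcm5 and Mcm6 had ratios of 0.34, 0.35, 0.29 and 0.38, each with an interval that held 0.

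The other 3 of the 7 S genes, Ccne2, Clspn and Hells, were lower in mutant. Among cells with Rag, 2 of the 7 were past the threshold downwards. Ccne2, the cyclin E2 gene, was the only S gene past the threshold among all S phase entry cells. It had 19 UMIs (64.6 CPM) in mutant cells and 46 UMIs (190 CPM) in wild type cells, a log2 ratio of -1.56 (-2.41 to -0.76). Among cells with a Rag UMI it had 6 UMIs in mutant and 40 in wild type (-1.77, -3.30 to -0.52). Along the H sum it had 24.1, 97.8 and 129 CPM in mutant and 125, 220 and 200 CPM in wild type. It was lower in mutant in each of the 3 bins, with intervals that overlapped in each. Ccne1, its paralogue, had 37.4 CPM in mutant and 20.7 CPM in wild type, with an interval that held 0 (-0.79 to 2.73). Since the rule sums Ccne2 with the other S genes, cells low in it could enter only through the others.

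Regulators of the G1/S step went in both directions. Of 26 tested E2F and G1/S control genes, 10 were higher and 16 lower, 1 past the threshold upwards and 5 downwards, with a median of -0.12. Cdk6, the kinase partner of D cyclins, had 354 CPM in mutant and 153 CPM in wild type (log2 1.21, 0.65 to 1.79), and 1.72 among cells with Rag. Ccnd3, the D cyclin that dividing pre-T cells depend on, had 935 CPM in mutant and 977 CPM in wild type (-0.06, -0.32 to 0.19). Ccnd2 had 194 CPM in mutant and 103 CPM in wild type (0.91, 0.20 to 1.65), but -0.97 among cells with Rag (-2.56 to 0.36). Ccnd1 and Rbl2, the lowest of the list, had 0 UMIs in mutant cells, where a floor of 3 UMIs is 10.2 CPM, and 6 and 5 UMIs in wild type cells.

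The mitosis list was lower in mutant S phase entry cells, with 26 of 37 genes lower, 8 of them past the threshold, and a median of -0.34. In the subset with an H sum of 2 to 9 the median was 0.19, and in those with 0 or 1 it was -1.18. Cenpe, a kinetochore motor, had 10.2 CPM in mutant and 41.4 CPM in wild type, and Mki67 had 54.4 CPM in mutant and 120 CPM in wild type (log2 -1.14, -2.12 to -0.21). The M sum had a median of 0 in mutant and of 0.5 in wild type.

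Myc, whose enhancer carries the altered sites, was among the 12 lowest genes. It had 5 UMIs (17 CPM) in mutant cells and 24 UMIs (99.3 CPM) in wild type cells, a log2 ratio of -2.55 (-4.29 to -1.13). The UMIs came from 4 mutant cells, of which 1 held 40%, and from 12 wild type cells, of which 1 held 25%. Among cells with Rag it had 1 UMI in mutant and 17 in wild type. At 2000 UMIs per cell 2.38% of mutant cells (0.060 to 12.6) and 20.5% of wild type cells (9.30 to 36.5) had a UMI, beside 1.35% and 4.50% of resting cells with Rag in mutant and wild type. The mutant share was thus near that of its resting cells (0.034 to 7.30), though its interval reached well above it. The wild type share was above that of its resting cells (1.48 to 10.2), with intervals that overlapped. At the same depth, mature non-cycling cells gave 4.76% in mutant and 4.59% in wild type. Histone-rich cells gave 3.75% in mutant and 7.59% in wild type, and mitotic cells 1.92% in mutant and 4.60% in wild type.

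The growth genes that MYC is known to activate had a median close to that of all tested genes. Of 38 tested genes for ribosome biogenesis and growth, 27 were higher and 11 lower in mutant, 1 past the threshold in each direction, with a median of 0.19, and 0.07 among cells with Rag, where all tested genes had 0.15. Nucleolin, Ncl, had 846 CPM in mutant and 811 CPM in wild type (log2 0.06, -0.21 to 0.34), and nucleophosmin, Npm1, had 1577 CPM in mutant and 1842 CPM in wild type (-0.22, -0.41 to -0.03). Against the rest of their own library the list's median was 0.68 in mutant and 0.33 in wild type. The rest differed between the libraries, with sums of 5357 CPM in mutant and 6496 CPM in wild type. In S phase entry cells the sums were 8964 CPM in mutant and 8079 CPM in wild type. Of 81 tested ribosomal protein genes, 79 were lower in mutant, 0 past the threshold, with a median of -0.24, and the median stayed below 0 under both other scalings, at -0.36 and -0.33. The MYC network list, Myc included, had 4 genes higher and 5 lower of 9 tested, with a median of -0.34. In it 2 were past the threshold upwards and 3 downwards, beside 11.1% and 6.1% of all tested genes. Its highest genes were Mlxip, Mxd3 and Mga. Its lowest was Mxi1, a repressor of the network, with 2 UMIs in mutant and 13 in wild type (-2.98, -6.17 to -0.84).

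Genes of NOTCH signalling and early thymocytes were higher in mutant. Of 11 tested genes of the NOTCH list, 9 were higher, 6 past the threshold upwards and 1 downwards, with a median of 1.82, and 1.87 among cells with Rag. The list summed to 2342 CPM in mutant and 1084 CPM in wild type S phase entry cells. In the rest of the library it was higher in mutant too, at 2686 CPM against 1458 CPM. Il2ra had 47 UMIs (160 CPM) in mutant and 2 UMIs (8.28 CPM) in wild type (log2 4.27, 2.34 to 7.36), from 10 mutant cells and 2 wild type cells. Hes1, a repressor induced by NOTCH, had 53 UMIs in mutant and 3 in wild type (3.86, 2.23 to 6.18). Among cells with Rag each had 11 UMIs in mutant, and Il2ra had 1 and Hes1 2 in wild type. All but 1 of these mutant UMIs came from 3 cells with 1 Rag UMI each, which held 11, 5 and 5 of them. Notch1 itself had 153 CPM in mutant and 74.5 CPM in wild type (1.04, 0.22 to 1.91), and Myl10 had 289 CPM in mutant and 66.2 CPM in wild type (2.13, 1.34 to 3.0). Ptcra, the pre-T cell receptor chain, was the member past the threshold downwards, with 12 UMIs in mutant and 26 in wild type, but the rule had removed cells by it.

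Of 19 tested T-lineage transcription factors, 13 were higher, 3 past the threshold, with a median of 0.22, beside 11.1% of all tested genes past it upwards. The lists share genes, so their counts are not separate. Lef1 is also in the NOTCH list, and Tox in the T cell receptor response list. Gata3, the factor that reads GATA sites in these cells, had 43 UMIs (146 CPM) in mutant and 9 UMIs (37.3 CPM) in wild type (log2 1.97, 0.92 to 3.19), and 15 against 9 UMIs among cells with Rag (1.70, 0.42 to 3.08). Lef1 had 493 CPM in mutant and 86.9 CPM in wild type (2.5, 1.84 to 3.24), and Tox, induced at positive selection, 156 CPM in mutant and 49.7 CPM in wild type (1.65, 0.71 to 2.71). Tcf7, of the same family as Lef1, was the lowest of the list, with 789 CPM in mutant and 1076 CPM in wild type (-0.45, -0.71 to -0.19). Cd8a, a coreceptor gene that double-positive cells express, was lower. It had 258 CPM in mutant and 675 CPM in wild type (-1.38, -1.80 to -0.98), and the ratio among cells with Rag was -1.47 (-2.10 to -0.89). Of the 7 tested V(D)J recombination genes, Rag1 and Rag2 included, 2 were higher and 5 lower, 3 past the threshold, with a median of -0.44 and of -0.07 among cells with Rag. Rag2, 1 of the 12 lowest genes, had 5 UMIs in mutant and 18 in wild type, and -0.88 (-2.67 to 0.60) among cells with Rag.

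Genes of later stages were higher in mutant as well, and here the medians were smaller among cells with Rag. Of 10 tested T cell receptor response genes, 10 were higher and 7 past the threshold, with a median of 1.47 and of 0.63 among cells with Rag. Itm2a, induced at positive selection, had 74 UMIs in mutant and 11 in wild type (log2 2.47, 1.54 to 3.53), and 1 mutant cell gave 56.8% of the 74. Among cells with Rag, Itm2a had 9 UMIs of 106722 in mutant and 11 of 208321 in wild type, so its level there was higher in mutant. The survival gene Bcl2, in both the T cell receptor response and single-positive lists, had 248 CPM in mutant and 57.9 CPM in wild type (2.10, 1.26 to 3.04). Of 9 tested single-positive genes, 8 were higher and 6 past the threshold, with a median of 1.65 and of 0.58 among cells with Rag. Both lists were higher in the rest of the mutant library as well. There the single-positive list summed to 3579 CPM in mutant and 2336 CPM in wild type. The T cell receptor response list summed to 1797 CPM in mutant and 1134 CPM in wild type. Ccr7, the chemokine receptor that draws cells to the medulla, had 29 UMIs in mutant and 3 in wild type (2.99, 1.30 to 5.35), but 0 in mutant and 3 in wild type among cells with Rag. Klf2, which switches on S1pr1, had 52 UMIs in mutant and 5 in wild type (3.09, 1.78 to 4.78). All 11 tested CD3 and proximal signalling genes were higher, 1 past the threshold, with a median of 0.38. The list summed to 5483 CPM in mutant and 3829 CPM in wild type S phase entry cells. It was higher in the rest of the mutant library too, at 6914 CPM against 5041 CPM. Cd3g had 1540 CPM in mutant and 803 CPM in wild type (0.94, 0.69 to 1.19).

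**Figure D5:**
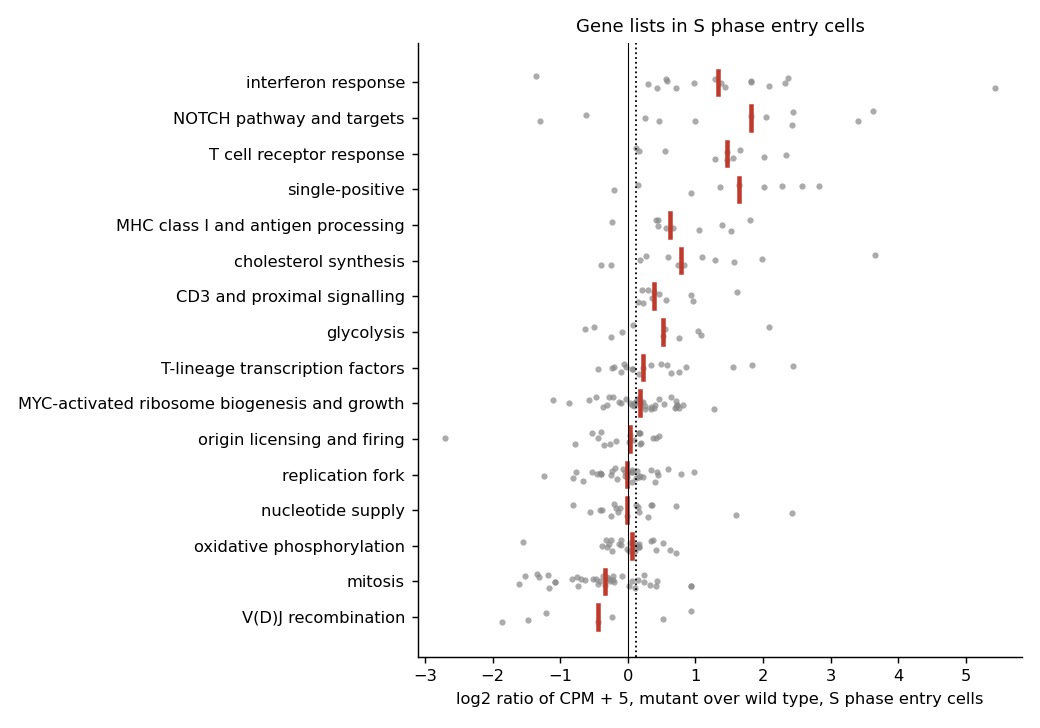
Log2 ratio of mutant over wild type in S phase entry cells, with 5 CPM added (x axis), for each tested gene (points) of 16 lists and each list's median (red bars); the solid line is 0 and the dotted line the median of all tested genes, 0.12. The replication lists sit near 0, and the interferon, NOTCH, T cell receptor response and single-positive lists have medians above 1.

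The interferon list was higher in mutant, among all S phase entry cells and among those with Rag. The difference was not particular to S phase entry cells. The list summed to 1672 CPM in mutant and 617 CPM in wild type S phase entry cells. In the rest of the library it summed to 1998 CPM in mutant and 942 CPM in wild type. Of 16 tested genes 15 were higher and 9 past the threshold upwards, 1 downwards, with a median of 1.33 and of 1.27 among cells with Rag. Ifi202b, an interferon-induced gene of the p200 family, had 62 UMIs (211 CPM) in mutant and 0 in wild type, and was at least 17-fold higher against a floor of 3 UMIs in the wild type set. The exact interval of its log2 ratio had a lower bound of 3.74. It was found in 24 of 44 mutant cells, 10 of the 16 with Rag, 6 of the 7 with Il2ra and Hes1 and 0 of the 7 mature ones. Ifi27l2a had 490 CPM in mutant and 91.1 CPM in wild type (log2 2.43, 1.77 to 3.15), and Ifi203 139 CPM in mutant and 29 CPM in wild type (2.27, 1.10 to 3.67). Reads of the related p200 genes can be assigned to each other, and how such reads were counted is not given in the sources used here. Epsti1 went the other way, with 37.4 CPM in mutant and 103 CPM in wild type (-1.47, -2.64 to -0.39).

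MHC class I and antigen processing genes were also higher, with 9 of 10 higher, 4 past the threshold, and a median of 0.62, and 0.95 among cells with Rag. In the rest of the library the list was higher too, with sums of 4392 CPM in mutant and 2506 CPM in wild type. B2m, the light chain of class I, had 1961 CPM in mutant and 745 CPM in wild type (log2 1.40, 1.15 to 1.65), with the same 1.40 among cells with Rag. H2-D1 had 608 CPM in mutant and 207 CPM in wild type (1.56, 1.10 to 2.04). H2-Q2, a class I-like gene among the 12 lowest, had 7 UMIs in mutant and 22 in wild type (-1.94, -3.41 to -0.66). The class I genes are near copies of each other, so the split between them is uncertain.

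Cholesterol synthesis was higher in mutant as a list, with 10 of 12 genes higher, 5 past the threshold, and a median of 0.78, and 0.80 among cells with Rag. Idi1, an isomerase of the pathway, had 136 CPM in mutant and 74.5 CPM in wild type (log2 0.87, 0.03 to 1.76). Against the rest of the library the median was 1.17 in mutant and 0.28 in wild type. Of 11 tested glycolysis genes 7 were higher and 3 past the threshold, with a median of 0.52 and of 0.17 among cells with Rag. Ldha had 751 CPM in mutant and 443 CPM in wild type (0.76, 0.42 to 1.11). The oxidative phosphorylation list had a median of 0.06, with 15 of 26 higher. Its lowest gene was Dnajc15, with 27 UMIs in mutant and 67 in wild type (-1.60, -2.30 to -0.93). Of 16 tested tubulin and actin genes 12 were higher, with a median of 0.39. Tmsb10, which binds actin monomers, had 4402 CPM in mutant and 1622 CPM in wild type (1.44, 1.28 to 1.61).

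The remaining genes at the ends of the ranking of 2768 genes were spread over functions. Upwards, Plac8 had 159 UMIs (540 CPM) in mutant and 17 UMIs (70.4 CPM) in wild type (log2 2.94, 2.22 to 3.76), from 22 mutant and 8 wild type cells. Among cells with Rag it had 80 UMIs in mutant and 8 in wild type (4.29, 3.24 to 5.55). Lgals3bp, a secreted binder of galectin 3, had 23 UMIs in mutant and 1 in wild type, and the lectin receptor Clec12a had 20 in mutant and 1 in wild type. The surface protein Cd200 had 25 UMIs in mutant and 2 in wild type, and the selenoprotein Vimp 24 in mutant and 2 in wild type. Trim12a had 21 UMIs in mutant and 2 in wild type, and Ctsw, a cathepsin of cytotoxic lymphocytes, 31 in mutant and 3 in wild type. Each of these ratios had a lower bound above 1 on the log2 scale.

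Downwards, Tubb2b, a beta-tubulin, had 10 UMIs in mutant and 45 in wild type (log2 -2.45, -3.61 to -1.44), from 5 mutant and 22 wild type cells. Phlda1 had 3 UMIs in mutant and 27 in wild type (-3.45, -5.82 to -1.75), and 1 of the wild type cells gave 51.9% of those 27. The septin Sept2 had 6 UMIs in mutant and 20 in wild type, Ssbp2 21 in mutant and 59 in wild type (-1.77, -2.57 to -1.03), and Agtrap 5 in mutant and 16 in wild type. Among the cells with an H sum of 0 or 1, Ssbp2 and Agtrap were higher in mutant, at 0.54 and 1.14 with 5 CPM added. The class II genes Cd74, H2-Eb1, H2-Ab1 and H2-Aa, which B cells and other antigen-presenting cells express, took the first 4 places. Cd74 had 27 UMIs in mutant and 332 in wild type, of which 98.2% were in 1 wild type cell. Without the 1 cell per library that held over 20 UMIs of the B cell list, it had 3 UMIs in mutant and 6 in wild type.

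Markers of other cells were summed by list. The 10 measured genes of the B cell list summed to 241 CPM in mutant and 2140 CPM in wild type, and to 49.3 CPM and 106 CPM without those cells, with 5 of the 10 genes at 0 in mutant and 6 in wild type. The macrophage and dendritic list of 14 genes summed to 190 CPM in mutant and 360 CPM in wild type, with 7 and 5 genes at 0. The innate-like T and NK list of 11 genes summed to 680 CPM in mutant and 281 CPM in wild type, with 5 and 6 genes at 0. Gzma, a granzyme, gave most of it, with 131 UMIs in mutant and 52 in wild type, Nkg7 gave 59 and 8, and the defining regulators Zbtb16 and Tbx21 were at 0 in both libraries. The 7 erythroid genes had 0 UMIs in mutant and 1 in wild type, and the stromal list summed to 57.8 CPM in mutant and 62.1 CPM in wild type, and the gamma delta T list to 44.2 CPM and 37.3 CPM. The part of these cells in the ratios of the single-positive, T cell receptor response and class II genes was not tested beyond the values without the B cell list cells and among cells with Rag. UMIs of Cd3d, Cd3e or Cd3g were found in 44 of 44 mutant and 39 of 40 wild type cells, and the wild type cell without them was the one over the B cell limit.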

How the data were processed

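Thymocytes of 1 mutant and 1 wild type library were measured by single-cell RNA sequencing with the 10x Chromium 3' v2 kit. The authors deposited raw UMI counts by barcode and gene symbol, whole numbers for 27933 symbols, per the file headers and values. Cell Ranger and mm10 are named in the submitters' processing notes, but the version and annotation are not given in the sources used here. There were 1737 mutant barcodes with 6364506 UMIs and 1346 wild type barcodes with 6638880 UMIs, with lowest totals of 1416 and 1781 UMIs. Barcodes with at least 400 genes and at most 10% mitochondrial UMIs were kept, which left out 6 mutant and 5 wild type barcodes.

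Members, comparison sets and gene lists were chosen with earlier results of these data known. UMIs were summed per set and divided by the set's total (CPM), with exact Poisson intervals for levels, exact conditional intervals for ratios and exact Clopper-Pearson intervals for shares, and a Newcombe interval for the difference of shares, all at 95%. PCR copies are collapsed by the UMIs, and the intervals cover counting error only. For named genes, those with at least 50 CPM in 1 library and 20 UMIs in both libraries together were ranked by log2 ratio with 5 CPM added, and the 12 highest and 12 lowest were named. The 3 highest and 3 lowest of each list, the rule's genes, Myc and Gata3, and the 20 genes highest over the rest were also eligible. Left out of the ranking were mitochondrial, ribosomal protein, sex-linked and haemoglobin genes, receptor segments and unnamed genes. Other genes that the text names, such as Npm1, Ccnd3, Idi1, Notch1, Cd8a and Top2a, were picked from the lists after their values were seen. Of 762 list entries, 751 were found among the symbols.

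Doublets were scored with Scrublet in scanpy 1.11.5. No cell was removed for its score, and leaving out the highest 4% was an alternative, which held 1 mutant member and 0 wild type members. Python 3.11.15, numpy 2.4.6, scipy 1.17.1, pandas 2.3.3 and matplotlib 3.10.9 were used, and the calculations were tested on simulated data. Some items are not reported here. Promoter sequences are from RefSeq, GRCm38.p6. The alternatives changed thresholds, depth, scaling, the added CPM, the filter on level and the cells included.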

Additional observations from a re-analysis of the deposited data

Results flagged for a closer look

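For 6 of the genes named above, the ratio of S phase entry cells over the rest of the same library had opposite signs in mutant and wild type. With 1 library per genotype, none of these differences was tested.

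Lgals3bp was higher in S phase entry cells than in the rest by 0.83 on the log2 scale in mutant, and the value in wild type was -2.72, from 1 UMI. Plac8 gave 1.26 in mutant and -0.95 in wild type. The class II genes ran the other way, and their wild type values rest on 1 cell, which held 98.2% of the Cd74 UMIs. Cd74 gave -1.80 in mutant and 4.44 in wild type, H2-Eb1 -2.34 in mutant and 4.68 in wild type, H2-Ab1 -1.16 in mutant and 3.46 in wild type, and H2-Aa -1.13 in mutant and 4.44 in wild type.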

How the results depend on the processing

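No paired analysis was possible because each genotype had 1 library, and for the same reason no replicate could be left out. Among list medians of at least 0.5 in size and single genes past the threshold, 1 list and 3 genes changed sign under an alternative, given below. Medians nearer to 0 changed sign more often. The number of lists with a median of at least 0.5 in size was 10, and stayed within 1.5 times of it under the alternatives run. The cause of these changes was not tested.

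The share of kept cells at S phase entry was 3.76% in mutant and 4.85% in wild type with an S threshold of 4, 2.01% in wild type with 8, 4.25% in wild type with thresholds scaled to 5000 UMIs per cell, and 3.45% in mutant and 4.15% in wild type with cells thinned to 2000 UMIs and thresholds of 3, 4 and 3 for the S, H and M sums. Without the Ptcra clause it was 3.47% in mutant and 3.28% in wild type. The difference, mutant minus wild type, was then 0.19 percentage points (-1.15 to 1.46), against -0.44 under the rule, and it was 0.29 (-1.05 to 1.64) with the same lower limit of UMIs in both libraries and 0.01 (-1.05 to 1.01) with an S threshold of 8. As a share of cycling cells, a denominator chosen after seeing the data, it was 14.2% in mutant and 7.19% in wild type, a difference of 7.05 percentage points. Against the rest, 67 genes were higher in both libraries with 1 CPM added, in place of 36, and 82 were lower against histone-rich and mitotic cells alone, a set chosen after seeing the data, in place of 51.

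Between the libraries, in place of 664 genes upwards and 365 downwards, thinning to 2000 UMIs gave 1418 and 961, 20 CPM added gave 256 and 91, no filter on level gave 1444 and 793, and a filter of 50 CPM gave 241 and 81. Scaling without ribosomal protein and mitochondrial genes gave 670 downwards, cells with Rag 670, scaled thresholds 190, and an H sum of 2 to 9 gave 673. An H sum of 0 or 1 gave 1289 and 976. The subsets by H sum were chosen after seeing the data. Ccr7 was -1.96 among cells with Rag. Ssbp2 was 0.54 and Agtrap 1.14 in cells with an H sum of 0 or 1. The B cell list had a median of 0.75 with no filter on level.

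With H scaled to 5000 UMIs, the log2 ratio of the highest over the lowest histone bin in mutant was 0.82 for licensing and firing genes and 0.66 for the S genes, in place of 0.39 and 0.31. Genes at 0 in 1 library, set to their bound, left the list medians as they were. The sets are small, so a gene under about 20 CPM rests on a handful of UMIs.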
